A study of Mus musculus with 4 samples.

Results

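The genes described here are 29 enzymes and regulators of fatty acid and cholesterol synthesis, taken by symbol from a fixed list. They are 29 of the 55471 genes in the count files, and all 29 were found there. The list holds 11 genes of fatty acid synthesis (Acly, Acaca, Fasn, Scd1, Scd2, Elovl1, Elovl5, Elovl6, Me1, Acss2 and the regulator Srebf1). Its other 18 belong to sterol synthesis and sterol handling (Hmgcs1, Mvk, Pmvk, Mvd, Idi1, Fdps, Fdft1, Sqle, Lss, Cyp51, Msmo1, Nsdhl, Sc5d, Dhcr7, Acat2, Stard4 and the regulators Srebf2 and Insig1).

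Fatty acid synthesis starts from cytosolic acetyl-CoA, which ATP citrate lyase (Acly) makes from citrate and Acss2 from acetate. Acetyl-CoA carboxylase (Acaca) and fatty acid synthase (Fasn) build palmitate with NADPH that malic enzyme (Me1) helps to supply, and elongases (Elovl) and stearoyl-CoA desaturases (Scd) modify the product. Sterol synthesis uses the same acetyl-CoA through mevalonate, isoprenoids, squalene and lanosterol, and the SREBP proteins activate the genes of both branches when sterols are low. In the lung before birth, alveolar type 2 cells turn these lipids into surfactant, which is rich in phosphatidylcholine with saturated palmitate.

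Single-cell RNA was counted in 4 mouse lung libraries at stage E18.5, shortly before birth: 2 from wild type lungs and 2 from lungs titled Dnmt1 CKO, which carried Tbx4-rtTA and Tet-O-Cre with Dnmt1-D/D. In such mice the Tbx4 element drives a doxycycline-controlled activator in lung mesenchyme, the activator turns on Cre, and Cre removes part of Dnmt1, the methyltransferase that copies DNA methylation at replication. The control label says only wild type, so effects of the driver, of Cre and of the deletion cannot be told apart. No label says whether any embryos, wild type ones included, received doxycycline, and the series title speaks of a knock in where the sample titles say CKO. Replicates are numbered, but no label says that each library was a separate animal. The p-values of genotype comparisons measure the spread between these 4 libraries. Where a fit carries the library as a block, they measure how far differences within a library vary between libraries. The split of mutant cells by germline genes rests on the 2 Dnmt1 CKO libraries alone. Its SE and p-values with the block therefore rest mostly on spread that edgeR pools over genes. They say little of how far a gene's own difference varies between those libraries. The cells kept were 5111 and 4932 from the wild type libraries and 4323 and 5675 from the mutant ones, from libraries of 48213065 to 56760219 unique molecular identifiers (UMIs, each counting 1 captured transcript). Library pairs shared between 4 and 10 kept cell barcodes. The study asks what loss of Dnmt1 in the mesenchyme does to lung cells, and here it is asked of the lipid synthesis genes.

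Cells were clustered without the lipid genes and clusters were named from marker genes, so that the names carry "-like". The 5 broad classes were mesenchymal-like (2799, 2557, 2567 and 2789 cells in wild type replicates 1 and 2 and Dnmt1 CKO replicates 1 and 2), mesothelial-like, immune-like, epithelial-like and endothelial-like. For each library and class the UMIs of all cells were added up, and levels are given in the usual CPM unit, scaled to the class total. Dnmt1 stood at 27.6 and 26.0 CPM in wild type mesenchymal-like cells and at 9.72 and 12.7 CPM in those of Dnmt1 CKO. In alveolar type 2-like cells, which are epithelial, it stood at 19.5 and 17.3 CPM in the wild type libraries and at 23.9 and 14.9 CPM in Dnmt1 CKO. The mesenchymal-like class changed its make-up with genotype: matrix fibroblast-like cells numbered 1869 and 1729 in the wild type libraries and 121 and 454 in the mutant ones. Conversely, mesenchymal-like cells that reached no subclass name numbered 29 and 29, against 1563 and 1395 in Dnmt1 CKO.

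Across cell classes, lipid synthesis genes were highest in alveolar type 2-like cells more often than in any other class. Of 17 classes compared in wild type, this class held the highest mean level of 12 of the 29 genes, and it was among the 3 highest for 20. The same ranking was not made over all genes, so no share stands beside these counts. For 8 of the 12, both wild type libraries were above both libraries of the second class. The 12 were Acaca, Fasn, Scd1, Me1 and Srebf1 of fatty acid synthesis, and Insig1, Hmgcs1, Idi1, Fdps, Fdft1, Lss and Nsdhl of sterol synthesis. Every comparison of classes below fits all 4 libraries with each library as a block, in edgeR's quasi-likelihood test, and "called" means a Benjamini-Hochberg adjusted p under 0.05 over all genes tested.

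Against mesenchymal-like cells, 26 of the 29 genes were called higher in alveolar type 2-like cells and 1 was called lower. Of all 16937 genes tested in that comparison, 31.3% were called higher and 35.3% lower. The median log2 difference was 1.61 over the 29 genes and -0.08 over all genes. Against endothelial-like cells 26 were called higher and 2 lower, beside 38.4% and 33.3% of all genes. Against immune-like cells 23 were called higher and 2 lower, beside 36.6% and 36.7%. Alveolar type 1-like cells, the flat gas exchange cells of the same epithelium, were closer: 21 of 28 tested genes were called higher in alveolar type 2-like cells and 1 lower, beside 20.7% and 20.6% of all genes.

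**Figure D1:**
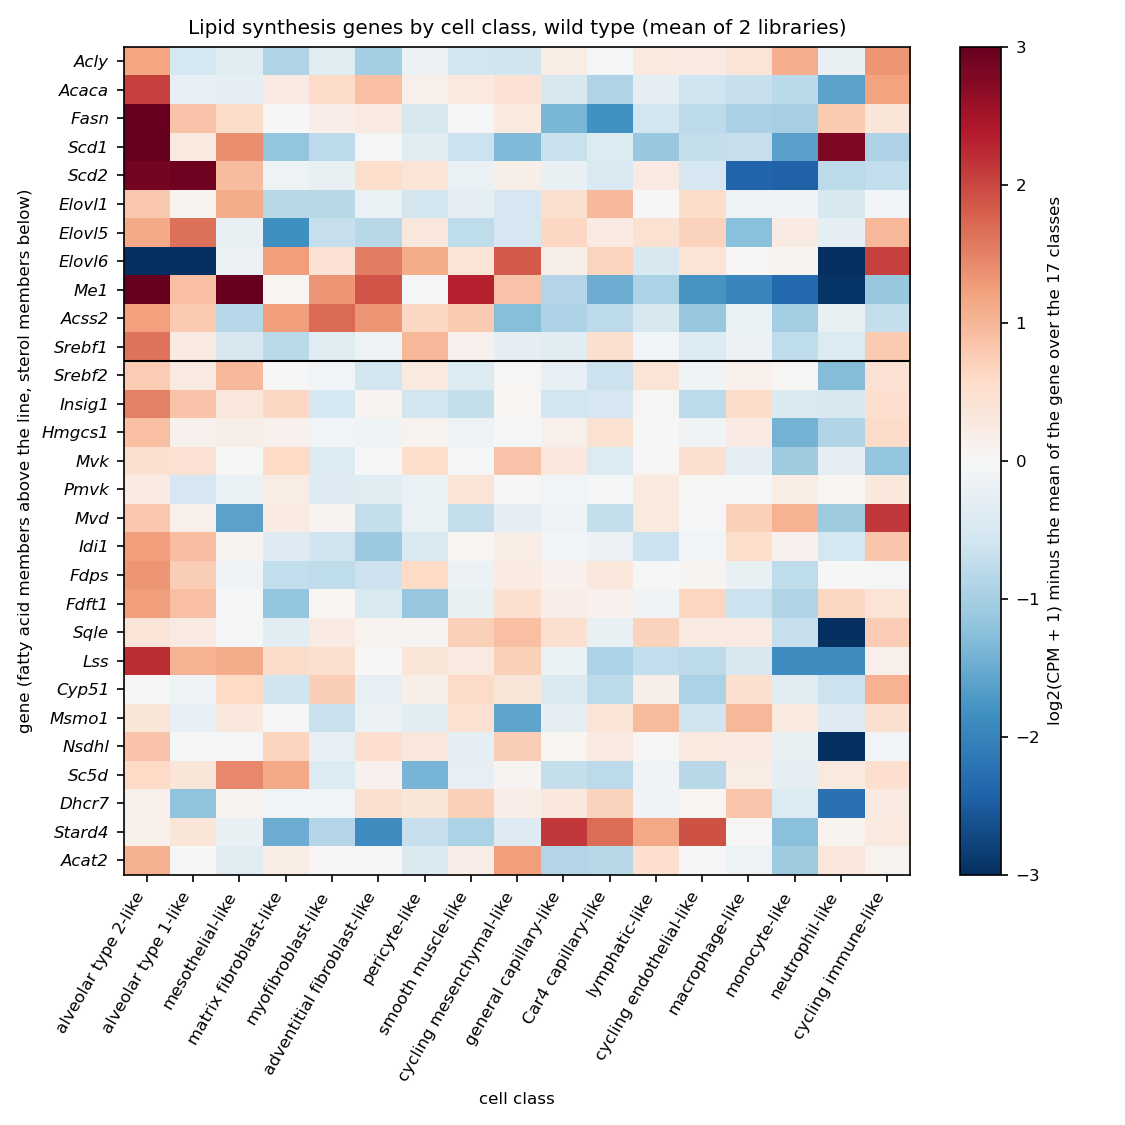
Level of each of the 29 genes (rows) in 17 cell classes (columns) of the wild type libraries, as log2(CPM + 1) minus the gene's own mean over the classes; colours end at 3 in each direction. The alveolar type 2-like column is the highest for 12 genes, and Elovl6 is near or at 0 CPM in both alveolar columns.

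Among the desaturases, Scd1 (chromosome 19, 44394455 to 44407879 on GRCm38), which places the double bond of oleate, had the largest ratio of alveolar type 2-like to mesenchymal-like level. Scd1 stood at 837 and 614 CPM in wild type alveolar type 2-like cells and at 923 and 772 CPM in those of Dnmt1 CKO. In mesenchymal-like cells it stood at 5.93, 3.91, 5.21 and 6.46 CPM in the same order. The classes did not overlap, and the wild type ratio of CPM was 147. The edgeR fit of all 4 libraries, with its own scaling, gave a log2 difference of 7.45 (SE 0.14, adjusted p = 1.4e-07). Classes outside the epithelium with low Scd1 counts also held counts of Sftpc, the surfactant protein C transcript of alveolar type 2 cells. Per 1000 Sftpc UMIs there were 7.68 Scd1 UMIs in alveolar type 2-like, 13.7 in mesenchymal-like, 11.5 in endothelial-like and 9.71 in neutrophil-like cells of wild type. The ratio was not constant over the subclasses: it was 2.78 in alveolar type 1-like, 17.9 in macrophage-like, 20.7 in smooth muscle-like, 23.0 in pericyte-like and 33.8 in adventitial fibroblast-like cells, the last from 24 Scd1 UMIs. The neutrophil-like value of 79.1 CPM, the second highest mean, came from 20 UMIs in 1 library and 0 in the other.

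Fasn, which assembles palmitate, stood at 467 and 321 CPM in wild type alveolar type 2-like cells and at 36.8 and 23.7 CPM in mesenchymal-like cells. Its classes did not overlap, and the fit of all 4 libraries gave a log2 difference of 4.35 (SE 0.17, adjusted p = 5.5e-07). Against alveolar type 1-like cells, Fasn was called higher by 2.66 (SE 0.08, adjusted p = 4.7e-19) and Scd1 by 5.26 (SE 0.14, adjusted p = 1.9e-20). The companion desaturase Scd2 did not follow Scd1 between the alveolar classes. Scd2 stood at 1213 and 1108 CPM in wild type alveolar type 2-like cells and at 1168 and 1243 CPM in alveolar type 1-like cells, which overlapped. Its log2 difference between them was 0.14 (SE 0.07, adjusted p = 0.13), while both classes were above the mesenchymal-like 173 and 135 CPM.

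Elongases split between the classes. Elovl6, which extends palmitate to stearate, was called lower in alveolar type 2-like than in mesenchymal-like cells by -5.45 on the log2 scale (SE 0.40, adjusted p = 1.5e-05). The alveolar type 2-like sums held 1, 0, 2 and 3 Elovl6 UMIs in the 4 libraries against 319, 408, 180 and 195 UMIs in mesenchymal-like cells. No Elovl6 UMI was found in alveolar type 1-like cells of any library, which allows up to 1.04, 1.02, 2.12 and 1.23 CPM (3 UMIs of each sum, counting error only). Its highest wild type level was in cycling immune-like cells, at 40.4 and 31.2 CPM. Elovl5, which elongates polyunsaturated fatty acids, was called higher in alveolar type 1-like than in alveolar type 2-like cells, with 96.8 and 116 against 76.5 and 72.9 CPM in the wild type libraries (log2 difference of alveolar type 2-like over alveolar type 1-like -0.45, SE 0.07, adjusted p = 8.5e-06).

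For the sterol genes, log2 differences of alveolar type 2-like over mesenchymal-like cells ran from 0.17 (Dhcr7, not called) to 2.68 (Fdft1). Sc5d, a late desaturase of the sterol ring, stood at 24.5 and 22.6 CPM in alveolar type 2-like and at 25.3 and 29.7 CPM in mesenchymal-like cells of wild type. Mvk, which phosphorylates mevalonate, stood at 29.2 and 16.6 CPM against 25.0 and 20.6 CPM. These 2 genes and Elovl6 had the smallest alveolar type 2-like to mesenchymal-like ratios (0.856, 1.01 and 0.00256). The wild type libraries of the 2 classes overlapped for Mvk, and for Sc5d the mesenchymal-like libraries were both higher. The fits differ from these CPM in 2 ways: they average over both genotypes and use the scaling of edgeR in place of the class total. They called both genes higher in alveolar type 2-like cells, by 0.43 for Mvk and 0.78 for Sc5d (adjusted p = 0.022 and 0.048). With the wild type libraries alone, 24 of the 29 genes were called higher in alveolar type 2-like than in mesenchymal-like cells and 1 lower.

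Stard4, a carrier that moves cholesterol between membranes, was the gene of the list with its highest levels in endothelium. It stood at 183 and 183 CPM in general capillary-like cells of wild type and at 54.1 and 38.0 CPM in alveolar type 2-like cells, with no overlap. Against the whole endothelial-like class, the alveolar type 2-like level was called lower (log2 difference -1.10, SE 0.14, adjusted p = 4.4e-05). Mvd, which makes isopentenyl diphosphate, was called lower in alveolar type 2-like than in immune-like cells (-0.74, SE 0.13, adjusted p = 0.00064), and its highest mean was in cycling immune-like cells.

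Alveolar type 2-like cells fell into 2 clusters that differed in depth, with median UMIs of 7707 to 12016.5 and of 23946 to 32865.5 per cell over the libraries. The deeper cluster had the lower CPM of 16 of the 29 genes in all 4 libraries and the higher of 2. Scd1 stood at 1575, 939, 1646 and 1201 CPM in the shallower and at 628, 510.2, 776 and 683 CPM in the deeper cluster. Sftpc moved the same way, from 168144 and 157730 to 74385 and 72888 CPM in wild type. The part of depth in these differences was not tested.

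By genotype, 2 of the 29 genes rose in Dnmt1 CKO mesenchymal-like cells and 5 fell. Of the 16151 genes tested there, 7.15% were called higher and 5.88% lower, or 13% in all, and the 2 higher calls of 29 lie near the share of all genes. The rise of Acly was known when the 29 genes were chosen, so nothing is read from the count of calls against these shares. Both that rose, Acly and Me1, supply fatty acid synthesis with acetyl-CoA and NADPH. Of the falling genes, 4, Srebf2, Idi1, Msmo1 and Sc5d, belong to sterol synthesis, and the fifth was Elovl6. DESeq2 also called 7 of the 29. The fit compared 2 libraries with 2 in edgeR, and each log2 fold change sets Dnmt1 CKO against wild type. The median was -0.60 over the 18 sterol genes, -0.06 over the 11 fatty acid genes and 0.00 over all genes. It was not the same in every mesenchymal-like subclass, as given with the subclasses.

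Acly (ENSMUSG00000020917.17, protein coding, minus strand of chromosome 11, 100476353 to 100528000 on GRCm38) stood at 28.0 and 23.5 CPM in the wild type libraries and at 108 and 95.8 CPM in Dnmt1 CKO mesenchymal-like cells. These rest on 481, 475, 2153 and 1630 UMIs. Both Dnmt1 CKO libraries were above both wild type libraries, with means of 25.7 ± 3.18 and 102 ± 8.56 CPM (SD, n = 2). The log2 fold change was 1.96 (SE 0.20, adjusted p = 0.000455, edgeR). It stayed called in all 17 alternative analyses, with fold changes between 1.80 and 2.15. For comparison, wild type alveolar type 2-like cells held Acly at 109 and 95.4 CPM.

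Me1 (chromosome 9, 86581371 to 86695953, minus strand) stood at 12.1 and 10.4 CPM in the wild type libraries and at 40.9 and 29.7 CPM in Dnmt1 CKO mesenchymal-like cells. The groups did not overlap, and the log2 fold change was 1.62 (SE 0.22, adjusted p = 0.0024). Me1 was called in no single subclass. In the matrix fibroblast-like clusters, Dnmt1 CKO was above wild type without overlap. Values there were 27.0 and 20.2 against 8.62 and 2.96 CPM, and 23.3 and 17.3 against 10.4 and 6.46 CPM. The same held in myofibroblast-like, pericyte-like and cycling mesenchymal-like cells. It did not hold in adventitial fibroblast-like cells (66.3 and 26.7 against 24.3 and 30.4 CPM) or in either smooth muscle-like cluster. The part of cell make-up in the rise was not tested. No other fatty acid gene rose. Fasn, at 36.8, 23.7, 21.3 and 20.8 CPM, had a value of -0.55 on that scale (SE 0.25, adjusted p = 0.18), and Acaca one of -0.37 (SE 0.19, adjusted p = 0.25). Scd1, Scd2, Elovl1, Elovl5, Acss2 and Srebf1 had fold changes between -0.17 and 0.22, and none was called.

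Elovl6 (chromosome 3, 129532355 to 129638495) fell from 18.6 and 20.2 CPM in wild type to 9.02 and 11.5 CPM in Dnmt1 CKO mesenchymal-like cells. The groups did not overlap, and the log2 fold change was -0.93 (SE 0.21, adjusted p = 0.023). Elovl6 was no longer called when wild type replicate 1 (adjusted p = 0.052), wild type replicate 2 (0.077) or Dnmt1 CKO replicate 1 (0.17) was left out.

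Of the sterol genes, Msmo1 (chromosome 8, 64718139 to 64733792), the oxidase that removes methyl groups from the ring, fell most. It stood at 19.5 and 18.01 CPM in the wild type libraries and at 7.11 and 8.11 CPM in Dnmt1 CKO, without overlap (log2 fold change -1.31, SE 0.22, adjusted p = 0.0058). Sc5d (chromosome 9, 42251595 to 42264256) stood at 25.3 and 29.7 CPM in the wild type libraries and at 10.7 and 12.6 CPM in Dnmt1 CKO. Its groups did not overlap either (log2 fold change -1.24, SE 0.20, adjusted p = 0.0050).

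The sterol regulator Srebf2 (chromosome 15, 82147181 to 82205379), which encodes SREBP2, stood at 43.2 and 38.5 CPM in the wild type libraries and at 26.3 and 22.5 CPM in Dnmt1 CKO mesenchymal-like cells (log2 fold change -0.76, SE 0.19, adjusted p = 0.032). Idi1 (chromosome 13, 8885501 to 8892451), the isomerase of isoprenoid units, stood at 19.3 and 17.2 CPM and at 11.5 and 9.69 CPM (-0.80, SE 0.21, adjusted p = 0.041). Neither gene's groups overlapped. Srebf2 lost its call without wild type replicate 1 or either Dnmt1 CKO replicate (adjusted p = 0.082, 0.079 and 0.17). Idi1 lost it without any 1 of the 4 libraries (adjusted p between 0.063 and 0.17), under stricter cell filters (0.058) and without cells holding Mki67 or Top2a (0.055).

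The other 14 sterol genes were not called in mesenchymal-like cells. Of all 18, 16 had a negative fold change, and the positive ones were Cyp51 (0.10, SE 0.21) and Dhcr7 (0.63, SE 0.26, adjusted p = 0.16). Insig1, Mvk, Fdft1 and Acat2 had values between -0.48 and -0.05. Pmvk, Mvd, Fdps, Sqle, Lss, Nsdhl and Stard4 had values between -0.79 and -0.56 with adjusted p between 0.079 and 0.38. Hmgcs1, an early enzyme of the branch, was at 68.2 and 71.6 CPM in the wild type libraries and at 59.7 and 55.0 CPM in Dnmt1 CKO (-0.30, SE 0.17, adjusted p = 0.30).

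**Figure D2:**
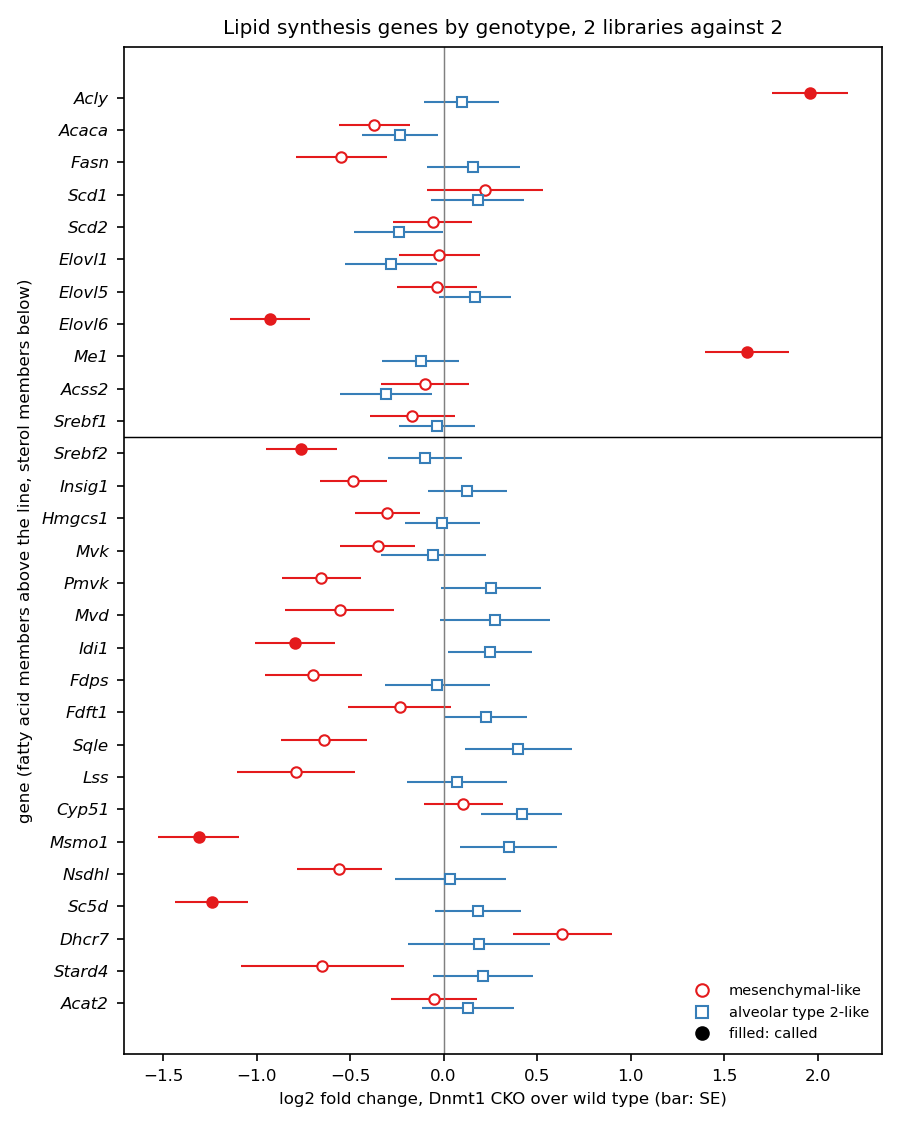
Log2 fold change of Dnmt1 CKO over wild type for each gene in mesenchymal-like (circles) and alveolar type 2-like cells (squares), with bars of 1 SE and 2 libraries a group; filled symbols are called. Acly at 1.96 and Me1 at 1.62 stand to the right in mesenchymal-like cells, Msmo1 at -1.31 and Sc5d at -1.24 to the left, and no alveolar type 2-like symbol is filled.

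Promoter sequence is shown for Acly and for the 3 genes of the list with the next smallest adjusted p in mesenchymal-like cells, since CpG pairs are the sites that Dnmt1 methylates. The windows run from 250 bases before to 50 after the start in RefSeq on GRCm38.p6, on the minus strand in each case, and 23 of the 29 genes had at least 1. Me1 had 2, of which the one at the gene's annotated start is shown. Capitals mark GGGCGG (Sp1), CCAAT (NF-Y) and CACGTG (E-box) on either strand; no copy of the sterol element searched as TCACNCCAC lies in these windows.
Acly, chr11:100527951-100528250: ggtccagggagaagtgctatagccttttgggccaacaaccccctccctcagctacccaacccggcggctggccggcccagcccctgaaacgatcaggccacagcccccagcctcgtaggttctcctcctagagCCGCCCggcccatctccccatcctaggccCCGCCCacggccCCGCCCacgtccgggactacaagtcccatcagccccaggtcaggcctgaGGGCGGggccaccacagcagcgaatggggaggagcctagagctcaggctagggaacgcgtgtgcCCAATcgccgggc
Me1, chr9:86695865-86696164: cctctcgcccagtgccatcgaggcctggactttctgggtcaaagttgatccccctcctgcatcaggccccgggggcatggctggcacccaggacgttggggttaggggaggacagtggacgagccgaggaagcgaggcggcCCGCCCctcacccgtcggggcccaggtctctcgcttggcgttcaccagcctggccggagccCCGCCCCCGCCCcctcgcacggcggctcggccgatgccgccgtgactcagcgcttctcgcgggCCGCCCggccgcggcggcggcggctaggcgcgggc
Sc5d, chr9:42264251-42264550: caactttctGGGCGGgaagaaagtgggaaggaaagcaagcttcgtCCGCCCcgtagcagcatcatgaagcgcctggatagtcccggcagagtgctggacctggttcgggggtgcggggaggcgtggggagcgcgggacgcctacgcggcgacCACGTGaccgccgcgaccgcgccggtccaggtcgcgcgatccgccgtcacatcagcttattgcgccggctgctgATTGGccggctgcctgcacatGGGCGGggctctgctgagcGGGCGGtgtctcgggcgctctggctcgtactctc
Msmo1, chr8:64733529-64733828: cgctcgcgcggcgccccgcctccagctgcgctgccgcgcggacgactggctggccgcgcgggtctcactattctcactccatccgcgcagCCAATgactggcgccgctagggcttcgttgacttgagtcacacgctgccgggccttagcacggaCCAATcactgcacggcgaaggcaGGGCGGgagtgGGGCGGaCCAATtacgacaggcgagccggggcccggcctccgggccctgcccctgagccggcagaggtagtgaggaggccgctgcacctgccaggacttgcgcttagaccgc
The Acly window holds 18 CpG pairs, and those of Me1, Sc5d and Msmo1 hold 35, 36 and 35. The median was 7 over 32851 promoters and 20 over the promoters of the listed genes. CpG pairs are thus present both in the genes that rose and in those that fell; methylation was not measured. CCAAT was found in 20 of the 23 matched genes and in 37.4% of all promoters, and GGGCGG in 18 genes and in 35.7% of promoters. CACGTG was in 4 genes and in 7.15% of promoters, and TCACNCCAC in Hmgcs1 alone and in 1.24% of promoters. A gene with several windows in the table was counted if any of them matched.

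The rise of Acly was found in mesenchymal-like cells and was not called in the epithelium, endothelium or immune cells. Epithelial-like cells held 90.9 and 75.3 CPM in the wild type libraries and 93.0 and 92.7 CPM in Dnmt1 CKO (log2 fold change 0.13, SE 0.19). Endothelial-like cells held 57.9, 47.1, 52.1 and 54.4 CPM (0.05, SE 0.24), and immune-like cells 109.7, 111, 129 and 92.8 CPM (0.06, SE 0.20). The difference itself passed the test: the mesenchymal-like change exceeded the epithelial-like one by 1.83 (SE 0.13, adjusted p = 0.0074) and the endothelial-like one by 1.95 (SE 0.16, adjusted p = 0.00056), where 1.64% and 3.12% of all genes were called higher. Mesothelial-like cells, the lining of the lung surface with 30 to 67 cells a library, held 45.0 and 25.8 CPM in the wild type libraries and 92.6 and 76.3 CPM in Dnmt1 CKO. Their groups did not overlap, but the change was not called (1.19, SE 0.31, adjusted p = 0.21). It was called with no low-count filter (adjusted p = 0.013) and without Dnmt1 CKO replicate 2 (0.032). Dnmt1 was lower there too, at 52.2 and 47.7 CPM against 9.50 and 18.2 CPM.

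**Figure D3:**
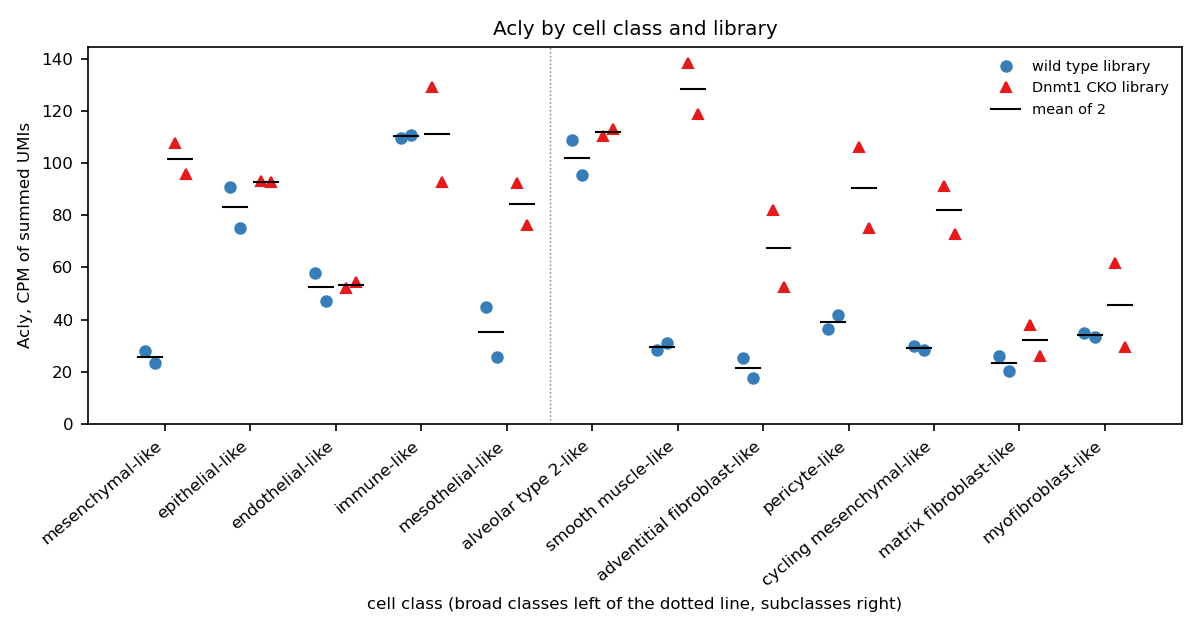
Acly level (CPM of summed UMIs, from 0) in each library, wild type as circles and Dnmt1 CKO as triangles, with bars at the mean of 2; broad classes stand left and subclasses right of the dotted line. Dnmt1 CKO lies above wild type without overlap in mesenchymal-like cells and in smooth muscle-like, adventitial fibroblast-like, pericyte-like and cycling mesenchymal-like cells. It also does so in mesothelial-like and, by a small margin, epithelial-like cells, where the change was not called. The matrix fibroblast-like values run from 20.3 to 38.1 CPM.

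Within the mesenchyme, Acly rose in 4 of the 6 subclasses that could be tested. Smooth muscle-like cells went from 28.2 and 31.1 to 139 and 119 CPM (log2 fold change 2.06, SE 0.26, adjusted p = 0.0017), where 4.88% of all genes were called higher. Adventitial fibroblast-like cells went from 25.4 and 17.6 to 82.3 and 52.6 CPM (1.61, SE 0.31, adjusted p = 0.018), beside 0.871% of genes. Pericyte-like cells, which wrap capillaries, went from 36.5 and 41.7 to 106 and 75.2 CPM (1.25, SE 0.31, adjusted p = 0.019), beside 1.68%, and cycling mesenchymal-like cells from 29.7 and 28.3 to 91.1 and 72.7 CPM (1.46, SE 0.25, adjusted p = 0.019), beside 1.45%. Groups overlapped in none of these 4 subclasses. Smooth muscle-like cells came from 2 clusters, 1 of them mostly of Dnmt1 CKO cells (17, 31, 340 and 280). In the other (51, 47, 33 and 48 cells), Acly stood at 21.5 and 21.7 CPM in wild type libraries against 105 and 46.1 CPM in mutant ones, without overlap. DESeq2 did not call Acly in the adventitial fibroblast-like or pericyte-like cells (adjusted p = 0.074 and 0.24). Without wild type replicate 2, the smooth muscle-like (adjusted p = 0.091) and cycling mesenchymal-like (0.063) calls were lost. Without Dnmt1 CKO replicate 1, the cycling mesenchymal-like (0.15) and pericyte-like (0.61) calls were lost. Stricter cell filters and kept doublets also ended the pericyte-like call (log2 fold change 0.61 and 0.82), and equal cell numbers the adventitial fibroblast-like one (adjusted p = 0.060).

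In matrix fibroblast-like cells, the largest wild type subclass, Acly was not called. It stood there at 26.1 and 20.3 CPM in the wild type libraries and at 38.1 and 26.1 CPM in Dnmt1 CKO (log2 fold change 0.41, SE 0.28, adjusted p = 0.81). Dnmt1 was not lower in the Dnmt1 CKO libraries of that subclass (28.9 and 21.7 CPM) than in the wild type ones (21.3 and 21.6 CPM). Myofibroblast-like cells held Acly at 34.8, 33.3, 61.6 and 29.3 CPM (0.28, SE 0.39, adjusted p = 0.96), with overlap. Whether these 2 subclasses differ from the other 4 was not tested. The large cluster of unnamed mesenchymal-like cells, led by Saa3, Dazl and Rpl39l and almost wholly of Dnmt1 CKO cells (1427 and 1238, against 8 and 3), held 111 and 133 CPM. A smaller unnamed cluster had cells of both genotypes (21, 26, 136 and 157), and Acly stood there at 18.4 and 23.2 CPM in wild type libraries against 133 and 110.3 CPM in mutant ones.

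The sterol genes did not take 1 direction over these subclasses. In matrix fibroblast-like cells, 13 of 18 had a positive fold change with a median of 0.23, and their summed level was 459 and 423 CPM in the wild type libraries and 593 and 403 CPM in Dnmt1 CKO. In pericyte-like cells 8 of 13 tested were positive (median 0.06), and in myofibroblast-like cells 7 of 15 (median -0.06). Negative values were held by 13 of 13 in cycling mesenchymal-like cells (median -0.47), 14 of 15 in smooth muscle-like cells (-0.44) and 13 of 14 in adventitial fibroblast-like cells (-0.29). The difference between these subclasses was not tested.

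There were 2 further calls in subclasses. Msmo1 fell in smooth muscle-like cells, from 36.3 and 21.6 to 6.21 and 5.33 CPM (log2 fold change -2.04, adjusted p = 0.0098), where 4.98% of genes were called lower. Elovl6 fell in cycling mesenchymal-like cells, from 30.8 and 30.0 to 8.32 and 9.86 CPM (-1.61, adjusted p = 0.039), beside 0.501% of genes. Neither pair of groups overlapped. Leaving out wild type replicate 2 ended the Msmo1 call (adjusted p = 0.10). DESeq2 did not call Elovl6 (0.25), and its call was also lost with equal cell numbers (0.065) or without wild type replicate 1, wild type replicate 2 or Dnmt1 CKO replicate 1 (0.12, 0.081 and 0.32).

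Cycling transcripts moved with genotype in mesenchymal-like cells. All 10 cycling markers were higher in both Dnmt1 CKO libraries, with a summed level of 338 and 241 CPM in the wild type libraries and 672 and 505 CPM in Dnmt1 CKO. Without cells holding a UMI of Mki67 or Top2a (8.97% and 7.98% in the wild type libraries, 20.02% and 14.3% in the mutant ones), the Acly log2 fold change was 2.05 and was called, as in all alternatives (highest adjusted p 0.00277). Markers of immune cells summed to 29.7 and 27.3 CPM in the wild type libraries and 38.5 and 47.8 CPM in Dnmt1 CKO mesenchymal-like cells, with 6 of 10 higher and none at 0. Markers of epithelium summed to 60.9 and 44.5 against 52.8 and 105 CPM, with 4 of 10 higher. Alveolar type 2 markers summed to 454 and 465 CPM in the wild type libraries and to 445 and 1167 CPM in Dnmt1 CKO, with 2 of 12 higher in both. The class's own mesenchymal markers summed to 24691 and 27155 CPM against 18440 and 20361 CPM, with 5 of 10 lower and 3 higher in both Dnmt1 CKO libraries. In immune-like cells, the immune markers summed to between 8397 and 9688 CPM. Endothelial markers summed to 91.9, 89.9, 89.3 and 116 CPM in mesenchymal-like cells, and erythroid ones to 3031, 1561, 6472 and 2731 CPM. The part of these other transcripts in the changes of the lipid genes was not tested.

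In the epithelium, no gene of the list was called by genotype. Among 28 genes tested in alveolar type 2-like cells, edgeR called 0, 0 had an unadjusted p under 0.05 and DESeq2 called 0, beside 0.00737% of all 13563 genes called by edgeR. The same counts of 0 held in the whole epithelial-like class, beside 0.0% of genes. In alveolar type 1-like cells both programs called 0, but 5 of 27 genes tested in edgeR had an unadjusted p under 0.05. Their 11 fatty acid genes summed to 1510 and 1547 CPM in the wild type libraries and 1166 and 1191 CPM in Dnmt1 CKO, without overlap. Of the 10 fatty acid genes tested there, 6 had a positive and 4 a negative fold change. Alveolar type 2-like fold changes of the 28 genes ran from -0.31 (Acss2) to 0.42 (Cyp51), with a median of 0.13 against 0.00 for all genes. Fasn stood at 467 and 321 CPM in the wild type libraries and at 483 and 424 CPM in Dnmt1 CKO (log2 fold change 0.16, SE 0.25), and the groups overlapped. Of the 18 sterol genes, 14 had a positive fold change there, with a median of 0.19, and 16 a negative one in mesenchymal-like cells. Interaction tests called the mesenchymal-like change lower than the epithelial-like one for Msmo1 (-1.73, SE 0.29), Idi1 (-1.09, SE 0.21), Sqle (-0.95, SE 0.19), Pmvk (-0.92, SE 0.15) and Srebf2 (-0.70, SE 0.14), at adjusted p between 0.031 and 0.049, beside 1.24% of all genes lower and 2.88% in either direction. Me1 was called higher (1.64, SE 0.21, adjusted p = 0.017), as was Acly, beside 1.64%.

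No gene of the list was called by genotype in endothelial-like, immune-like or mesothelial-like cells by edgeR or DESeq2, beside 0.0157%, 0.00815% and 0.571% of all genes by edgeR. At an unadjusted p under 0.05 there were 0, 7 and 4 of 29, 29 and 22 genes tested. Among the 7 in immune-like cells were Me1 (7, 5, 38 and 66 UMIs, log2 fold change 2.17, adjusted p = 0.65) and Cyp51 (-0.75, adjusted p = 0.76). Of the 18 sterol genes, 15 had a negative fold change in immune-like cells too, with a median of -0.33. Their summed level there was 564 and 499 CPM in the wild type libraries and 448 and 348 CPM in Dnmt1 CKO, without overlap. Whether this change differs from the mesenchymal-like one was not tested. Against endothelial-like cells, the mesenchymal-like change was called lower for Sc5d (-1.43, SE 0.28), Elovl6 (-1.15, SE 0.25), Fasn (-0.94, SE 0.22) and Acaca (-0.91, SE 0.23), beside 2.19% of all genes lower, 3.12% higher and 5.3% in either direction. Over the 11 subclasses that were tested and had no call, 24 of 252 gene tests had an unadjusted p under 0.05 and DESeq2 called 0. Macrophage-like cells held 9 of these 24, on 26 genes tested, and DESeq2 gave an adjusted p there for 3 genes. Of 17 sterol genes tested in macrophage-like cells, 15 had a negative fold change (median -0.55), and the 18 summed to 581 and 475 CPM in the wild type libraries and 353 and 350 CPM in Dnmt1 CKO, without overlap. In these subclasses edgeR called 0.374% of all genes in matrix fibroblast-like, 0.364% in myofibroblast-like, 0.0986% in alveolar type 1-like, 0.074% in macrophage-like, 0.0585% in general capillary-like and 0.00737% in alveolar type 2-like cells, and 0.0% in the remaining ones. Neutrophil-like cells held too few UMIs for any gene of the list to be tested.

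Mutant mesenchymal-like cells differed among themselves, and the lipid genes differed with them. Loss of DNA methylation is known to release germline genes, and a list of 10 such genes (Dazl, Rpl39l, Tex101, Tuba3a, Tuba3b, Tex19.1, Slc25a31, Fkbp6, Taf7l and Trap1a) was used to split the cells after thinning each to 3000 UMIs. Cells with at least 2 germline UMIs numbered 1806 and 1461 in the Dnmt1 CKO libraries and 0 and 0 in wild type. Cells with none numbered 362 and 836, 256 and 194 held 1, and 143 and 298 were too shallow. Dnmt1 stood at 3.69 and 4.56 CPM in germline-positive, 23.9 and 23.9 CPM in germline-negative and 25.4 and 22.2 CPM in wild type cells.

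Acly was highest in the germline-positive cells. It stood at 115.5 and 139.9 CPM there, at 71.8 and 35.5 CPM in germline-negative cells of the same libraries, and at 26.8 and 24.5 CPM in wild type cells thinned alike. Both libraries were higher in positive cells, with a log2 difference of 1.34 (SE 0.15, adjusted p = 4.8e-13, library as a block, edgeR). The gap was smaller in replicate 1 (115.5 against 71.8 CPM) than in replicate 2 (139.9 against 35.5 CPM). That SE, pooled over genes, does not show this spread. Without the block the log2 difference was 1.28 (adjusted p = 0.062). Me1 was called too, at 41.7 and 35.8 against 36.8 and 18.3 CPM (0.55, SE 0.20, adjusted p = 0.032). None of 3 alternatives kept the Me1 call: its adjusted p was 0.34 without the block, 0.74 when thinned to 2000 UMIs and 0.13 with at least 4 germline UMIs.

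Sterol genes were lower in germline-positive cells: 10 of 17 tested were called lower and 0 higher, with Elovl6 as an 11th lower call on the whole list. Of all 12063 genes, 10.2% were called higher and 10.7% lower. The 18 sterol genes summed to 292 and 239.8 CPM in positive cells, 484 and 372 CPM in negative cells, and 444 and 392 CPM in wild type. Pmvk, which phosphorylates phosphomevalonate, stood at 22.7 and 25.1 CPM in positive and 56.2 and 51.0 CPM in negative cells (-1.17, SE 0.18, adjusted p = 3.1e-08). Fdps, which makes farnesyl diphosphate, stood at 16.2 and 13.5 against 48.8 and 29.9 CPM (-1.37, SE 0.21, adjusted p = 2.0e-08). Neither gene's values overlapped. The other 8 were Srebf2, Mvk, Mvd, Idi1, Sqle, Msmo1, Sc5d and Stard4, with log2 differences from -1.46 to -0.63.

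**Figure D4:**
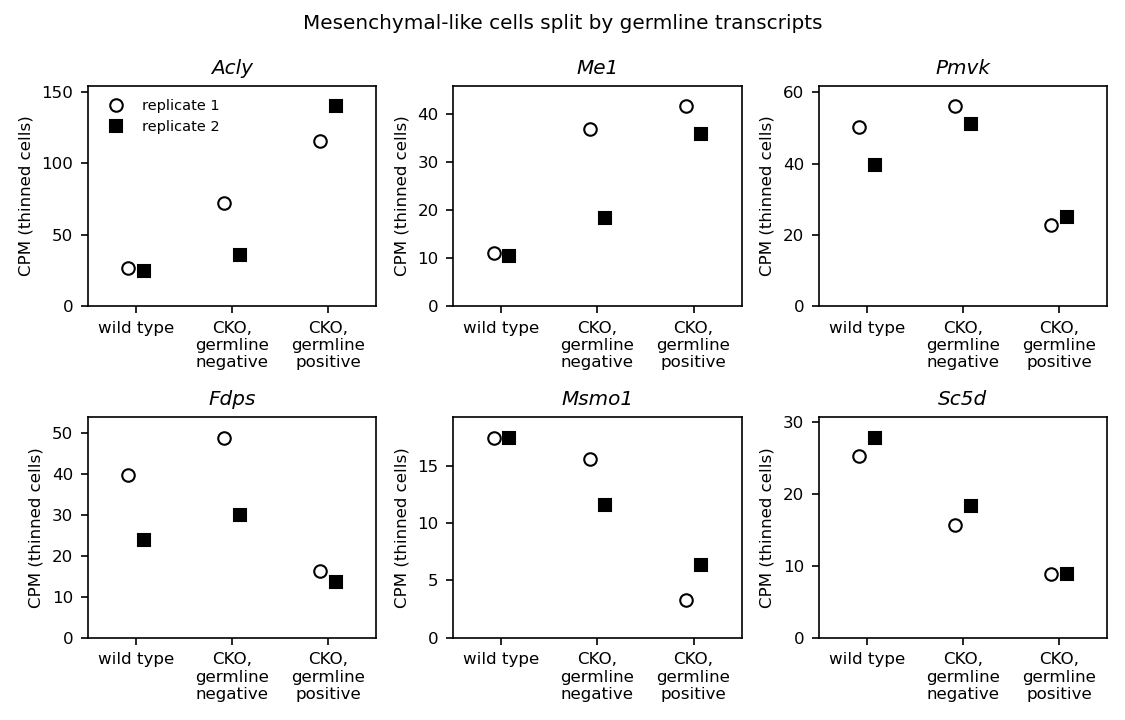
CPM of 6 genes, each panel from 0, in wild type mesenchymal-like cells and in germline-negative and germline-positive Dnmt1 CKO cells, all thinned to 3000 UMIs per cell, with replicate 1 as open circles and replicate 2 as filled squares. Acly is highest and Pmvk, Fdps, Msmo1 and Sc5d are lowest in both libraries of the germline-positive cells.

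Subclasses were unequally spread over the split. Unnamed mesenchymal-like cells made up 66.6% and 73.4% of germline-positive cells but 24.6% and 7.06% of germline-negative ones, and matrix fibroblast-like cells 26.8% and 49.2% of the negative. Within smooth muscle-like cells, Acly stood at 149 and 149 CPM in positive and 139 and 58.5 CPM in negative cells, and within cycling mesenchymal-like cells at 107 and 122 against 40 and 26.1 CPM (3 and 4 UMIs in the negative). Summed sterol genes within cycling mesenchymal-like cells stood at 337 and 285 CPM in positive and 600.0 and 601 CPM in negative cells. These sums were 308 and 246 against 370 and 398 CPM within smooth muscle-like cells. Pericyte-like cells held 248 and 167 against 978 and 438 CPM. Adventitial fibroblast-like cells held 268 and 267 against 345 and 246 CPM, with opposite order in the 2 libraries. Within adventitial fibroblast-like cells Acly was at 70.7 and 92.3 against 89.3 and 42.1 CPM, with opposite order in the 2 libraries. Within pericyte-like cells it was at 97.0 and 256 against 21.5 and 59.7 CPM (2 and 12 UMIs in the negative). Within the unnamed cells, which make up most of the positive ones, Acly stood at 112 and 140 CPM in positive and 116 and 90.4 CPM in negative cells, again with opposite order in the 2 libraries. Within the unnamed cells the sterol sums were 285 and 234.9 in positive and 285 and 266 CPM in negative cells. The part of cell make-up in the differences of the whole split was not tested. Germline-negative Dnmt1 CKO cells against wild type gave 0 calls of 29 in edgeR, beside 1.63% of all genes, with 3 at an unadjusted p under 0.05. The smallest adjusted p was that of Me1 (0.053) and then Acly (0.11, log2 fold change 1.01, SE 0.30).

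Neighbouring pathways were described with 6 further lists. Their calls stand beside the 7.15% of all genes called higher and 5.88% lower in mesenchymal-like cells, and nothing particular to these pathways is read from them. In mesenchymal-like cells, of 17 other genes of fatty acid synthesis, 2 rose and 0 fell. These were Me2, a mitochondrial malic enzyme, from 7.45 and 7.27 to 19.0 and 13.4 CPM (1.11, adjusted p = 0.018), and Hacd2, an elongation cycle dehydratase, from 19.9 and 18.3 to 32.9 and 33.5 CPM (0.78, adjusted p = 0.025). Of 15 genes of fatty acid activation and glycerolipid synthesis, the phosphatidate phosphatases Lpin1 (-1.64) and Lpin3 (-2.35, at most 2.33 CPM) and the acyl-CoA synthetase Acsl3 (-0.84) fell.

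Chpt1, which makes phosphatidylcholine, was the 1 called of 11 genes in the phosphatidylcholine and surfactant list, at 106 and 115 CPM in the wild type libraries and 54.6 and 69.7 CPM in Dnmt1 CKO (-0.85, adjusted p = 0.023). Of 10 genes of sterol efflux, Nr1h3, which encodes the sterol receptor LXR alpha, fell from 59.1 and 46.1 to 14.4 and 22.1 CPM (-1.54, adjusted p = 0.0059), and the lipid carrier Apoe from 1877 and 1966 to 502 and 948 CPM (-1.42, adjusted p = 0.018). Of 12 genes of fatty acid oxidation, edgeR and DESeq2 called 0, and 1 had an unadjusted p under 0.05. List medians in mesenchymal-like cells ran from -0.28 to 0.03, against -0.60 for the sterol genes. In alveolar type 2-like cells edgeR called 0 of the 75 genes of these 6 lists tested by genotype, 1 had an unadjusted p under 0.05, and DESeq2 called 0.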

How the data were processed

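Lung cells of 4 libraries were counted with 10x Genomics 3' chemistry. The files hold raw UMI counts per gene and barcode, deposited by the authors as Cell Ranger filtered matrices. The submitters' processing notes name Cell Ranger 3.1.0, bcl2fastq 2.20, Seurat and GRCm38.p6. Groups were taken from the sample titles.

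From these counts, barcodes with under 500 genes or over 20% mitochondrial UMIs were dropped, and Scrublet marked 228, 172, 78 and 82 doublets, which were removed. Cells were clustered in scanpy 1.11.5 (2000 variable genes, 30 components, 15 neighbours, Leiden resolution 1) without 116 lipid genes. Clusters were named from 29 marker lists, and 155, 196, 159 and 196 cells stayed without a class. UMIs were summed per library and class and tested in edgeR 4.0.16 (R 4.3.3) by the quasi-likelihood test with TMM scaling, the edgeR low-count filter and Benjamini-Hochberg adjustment over all genes of a class. The SE is the size of the log2 fold change divided by the root of F. Interactions and comparisons of classes carried the library as a block.

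On simulated counts for the mesenchymal-like comparison over 16151 genes, the test was checked before use. The members and gene lists were chosen with earlier results of these data known. Genes are named as follows: Acly in every broad class, genes called by genotype in mesenchymal-like or alveolar type 2-like cells, the 3 largest and 3 smallest ratios between those classes, and up to 4 called genes of each further list. Genes described beside these (Me1 and Cyp51 in immune-like cells, Elovl5, Stard4, Mvd, Hmgcs1, Pmvk and Fdps among them) were chosen after their values were seen. Alternatives were DESeq2 1.42.0, no low-count filter, other cell filters and resolutions, kept doublets, equal cell numbers, a replicate block and leaving out each library. With 2 libraries a group, an exact permutation test cannot go below p = 0.333, so none was used. Floors of 3 UMIs cover counting error only. The result for 1 gene of the further lists is not reported here.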

Additional observations from a re-analysis of the deposited data

Results flagged for a closer look

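For 7 genes the genotype difference in mesenchymal-like cells departed from that in epithelial-like cells, where edgeR called 2.88% of all genes. The log2 difference of the changes was 1.83 for Acly, 1.64 for Me1, -0.70 for Srebf2, -0.92 for Pmvk, -1.09 for Idi1, -0.95 for Sqle and -1.73 for Msmo1. With each library left out in turn, Acly, Me1 and Msmo1 were called in all 4 fits, Pmvk in 3, Idi1 in 2, and Sqle and Srebf2 in 0.

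Against endothelial-like cells, 5 genes were called, beside 5.3% of all genes. The log2 difference of the changes was 1.95 for Acly, -0.91 for Acaca, -0.94 for Fasn, -1.15 for Elovl6 and -1.43 for Sc5d. With each library left out, Acly was called in all 4 fits, Sc5d in 3, Elovl6 in 2, and Acaca and Fasn in 1 each. The sign of each of the 12 differences stayed the same in these fits.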

How the results depend on the processing

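In mesenchymal-like cells Acly, Me1, Msmo1 and Sc5d kept direction and call in 17 of 17 alternatives, Elovl6 and Srebf2 in 14 and Idi1 in 11. Genes called lower there numbered 9 in place of 5 with the replicate block, and 2 to 6 with a library left out. No label says whether a replicate number pairs libraries. Deviations of same-numbered libraries correlated at 0.20 over 8378 genes in 2 pairs, which is too few pairs to decide it. With no low-count filter 1 gene was called higher in immune-like cells and 1 in mesothelial-like cells. With a library left out, 0 to 1 were called higher and 0 to 2 lower in immune-like cells, and 0 to 1 higher in mesothelial-like cells. Leaving out a library gave 1 to 5 lower interactions against epithelial-like cells, and 1 to 2 higher and 0 to 7 lower ones against endothelial-like cells. Without the replicate block, alveolar type 2-like cells had 13 genes called above alveolar type 1-like cells in place of 21.

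In the germline split, genes called higher numbered 0 without the replicate block, 1 when thinned to 2000 UMIs and 1 with at least 4 germline UMIs, in place of 2. Genes called lower numbered 2 without the replicate block and 7 at 2000 UMIs, in place of 11. Over subclasses the 6 calls became 12 with no low-count filter, 3 with DESeq2, 10 with the replicate block, 3 under the stricter cell filter (10 subclasses tested) and 3 to 11 with a library left out. The cause was not tested.

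Changes that were not called turned sign in some settings. With doublets kept these were Scd1 (-0.0092) in mesenchymal-like and Acly (-0.012) in endothelial-like cells, where equal cell numbers gave -0.053. Elovl1 was at 0.043 without cycling clusters and 0.034 without cells holding Mki67 or Top2a. With a library left out, mesenchymal-like values ran from -0.087 to 0.60 for Scd1, -0.26 to 0.19 for Scd2, -0.25 to 0.24 for Elovl1, -0.20 to 0.12 for Elovl5, -0.28 to 0.11 for Acss2, -0.35 to 0.047 for Srebf1, -0.53 to 0.13 for Fdft1, -0.18 to 0.34 for Cyp51, -1.41 to 0.0041 for Stard4 and -0.26 to 0.16 for Acat2. Acly ran from -0.053 to 0.36 in epithelial-like, -0.13 to 0.23 in endothelial-like, -0.11 to 0.21 in immune-like, -0.015 to 0.21 in alveolar type 2-like and -0.21 to 0.84 in myofibroblast-like cells. A lone library in a group is assumed to vary like the other group.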
